A study of Mus musculus with 8 samples.

Results

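The genes described here encode enzymes of cholesterol and fatty acid synthesis, together with regulators of these pathways and a sterol carrier protein. They were chosen by name, as members of these pathways, and comprise 29 of the 19752 genes tested. Of these, 17 encode sterol enzymes, 8 encode fatty acid enzymes and 4 encode regulators or the sterol carrier Stard4. The tissue was ovarian tumour from 8 female mice of the genotype C57BL/6JTgMISIIR-TAg, 4 given vehicle (0.5% hypermellose/0.1% Tween 80) and 4 given AZD1480 at 30 mg/kg in the same vehicle. AZD1480 inhibits JAK1 and JAK2, kinases that activate STAT3. All 8 mice, controls included, carry the transgene, in which the Amhr2 promoter (MISIIR, the receptor for Müllerian inhibiting substance) drives SV40 T antigen. Treatment began once a tumour measured about 500 mm3, and the tissue was collected after 6 h. The ages of the mice and the number of doses are not given in the sources used here. Each tumour was hybridised to its own 1-colour array, and the comparison addresses which transcripts differ shortly after JAK inhibition.

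Cholesterol is built from acetyl-CoA through mevalonate, isoprenoid units, squalene and lanosterol, and fatty acids are built from acetyl-CoA through malonyl-CoA. Transcription of both sets of enzymes is driven by the sterol regulatory element-binding proteins, of which the Srebf2 product acts mainly on sterol genes and the Srebf1 product mainly on fatty acid genes. Insig1 holds the precursors of these factors in the endoplasmic reticulum when sterols are plentiful. In the ovary, cholesterol is also the substrate of steroid hormone synthesis, and in adipocytes fatty acid synthesis feeds stored fat.

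Promoter sequences are shown for 4 of the enzymes because the regulators named above act through short elements in such regions. The sequences are the 250 bases before the annotated start of transcription in RefSeq (build GRCm38.p6), written 5′ to 3′ on the strand of the gene. Capitals mark matches to the sterol regulatory element core TCACNCCAC, the E-box form CACGTG and the CCAAT box, each searched on both strands, so that ATTGG is a CCAAT box on the other strand. Hmgcs1 lies at chr13:119690101-119690350, plus strand, and its region holds 1 match to the sterol regulatory element core and 3 CCAAT boxes. That of Mvk lies at chr5:114444019-114444268, plus strand, and holds 5 CCAAT boxes. For Hsd17b7 the region is chr1:169969206-169969455, minus strand, with 1 E-box and 3 CCAAT boxes. For Fasn it is chr11:120824548-120824797, minus strand, with 3 CCAAT boxes, of which a pair on opposite strands overlaps.
Hmgcs1: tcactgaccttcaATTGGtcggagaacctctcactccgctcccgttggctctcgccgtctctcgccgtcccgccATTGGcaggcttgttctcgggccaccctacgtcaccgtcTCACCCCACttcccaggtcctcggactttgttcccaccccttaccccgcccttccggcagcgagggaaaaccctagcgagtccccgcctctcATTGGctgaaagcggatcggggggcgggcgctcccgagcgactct
Mvk: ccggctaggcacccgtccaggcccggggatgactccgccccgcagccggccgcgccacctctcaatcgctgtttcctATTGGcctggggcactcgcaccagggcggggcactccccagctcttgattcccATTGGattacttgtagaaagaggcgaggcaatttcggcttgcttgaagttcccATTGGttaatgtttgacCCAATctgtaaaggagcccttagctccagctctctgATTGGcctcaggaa
Hsd17b7: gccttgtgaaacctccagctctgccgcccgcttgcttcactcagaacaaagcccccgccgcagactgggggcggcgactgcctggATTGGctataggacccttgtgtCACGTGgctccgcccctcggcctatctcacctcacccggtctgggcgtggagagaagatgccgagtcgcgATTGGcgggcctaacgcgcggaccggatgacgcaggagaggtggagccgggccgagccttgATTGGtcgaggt
Fasn: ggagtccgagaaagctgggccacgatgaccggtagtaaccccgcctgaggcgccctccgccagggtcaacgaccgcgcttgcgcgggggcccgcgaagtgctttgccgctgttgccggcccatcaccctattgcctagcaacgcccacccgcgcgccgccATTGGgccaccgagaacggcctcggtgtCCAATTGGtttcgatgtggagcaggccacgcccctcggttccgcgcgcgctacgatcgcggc

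RefSeq windows of 300 bases, from 250 before to 50 after a start, were found for 22 of the 29 genes. The CCAAT box had a match in 19 of the 22 genes (86.4%), against 41.1% of the 27025 genes with a window. All 14 sterol enzyme genes with a window held one, as did 2 of the 5 fatty acid enzyme genes. The E-box matched in Hsd17b7, Sc5d, Dhcr7 and Insig1, which is 4 of 22 genes (18.2%, against 8.09% of all genes). The sterol regulatory element core matched in Hmgcs1 alone among the 22 genes (4.55%, against 1.44% of all genes), with its first base at position -137 from the start. The palindrome TTCNNNGAA, the form bound by STAT factors, was searched after the expression values had been seen. It matched in Ebp alone (4.55%, against 9.55% of all genes). A match describes these letters only and is not evidence of binding.

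The 8 arrays lay on 2 slides that were scanned apart, each with 2 vehicle and 2 AZD1480 arrays. Slide 1 held replicates 1 and 2 of both groups and slide 2 held replicates 3 and 4. Between 66.9% and 76.4% of the spots of an array were well above background. All 29 genes were well above background on 8 of 8 arrays, and none was saturated, so none of their values is a bound. The epithelial markers Krt8, Krt18, Epcam and Pax8 were well above background on 8 of 8 arrays, and 11 of 11 markers of this kind were tested, of which Cdh1 and Muc1 were well above background on 7 arrays and Cldn4 on 6. Of these 11, 10 were lower with AZD1480 and 1 higher, and of all genes 43.8% were lower. By limma 0 passed the adjusted test. At an unadjusted p under 0.05 by limma 1 was lower, Wfdc2 (difference -1.31), against 1.76% of all genes. The mean centred level of the 11 ran from -0.70 to 1.24 in vehicle and from -0.80 to 0.30 in AZD1480 tumours (difference -0.60). The part of these cells in the values of the 29 genes was not tested. Tumours stood apart in other markers too, as given further on, and vehicle replicate 3 and AZD1480 replicate 1 most often held the highest value of the 29 genes. Levels are given as log2 of the processed intensity minus the 75th percentile of the array on the same scale. Levels of different genes come from different probes and were not set against each other. The tumours are mixtures of cells, so fewer cells of a type and less RNA per cell cannot be told apart. With 4 arrays per group, the number of tumours limits the precision.

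None of the 29 transcripts was called different between AZD1480 and vehicle tumours by the adjusted test. By limma with Benjamini-Hochberg adjustment 0 of 29 passed the threshold of 0.05, as did 0 of all 19752 genes (0%), and the smallest adjusted p among the 29 was 0.977. At an unadjusted p under 0.05 the count was also 0 of 29. Over all genes 1.76% were lower and 1.72% higher at that level. The groups did not overlap for 1 of the 29 genes, Stard4, whose AZD1480 values lay below every vehicle value, as did 1.39% of all genes. No gene of the 29 lay above without overlap, against 1.19% of all genes. In AZD1480 tumours the mean was higher for 20 of the 29 genes and lower for 9, beside 11107 higher and 8645 lower over all genes. The split of the 29 became 15 and 14 when arrays were scaled by their median. The median log2 difference over the 29 genes was 0.0857, beside 0.0431 over all genes. The 95% confidence interval of the difference lay within a 2-fold change either way for 22 of the 29 genes, against 56% of all genes. For the other 7 genes, Mvd, Tm7sf2, Sc4mol, Hsd17b7, Fasn, Scd1 and Scd2, the interval held both no change and a 2-fold or larger change.

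**Figure D1:**
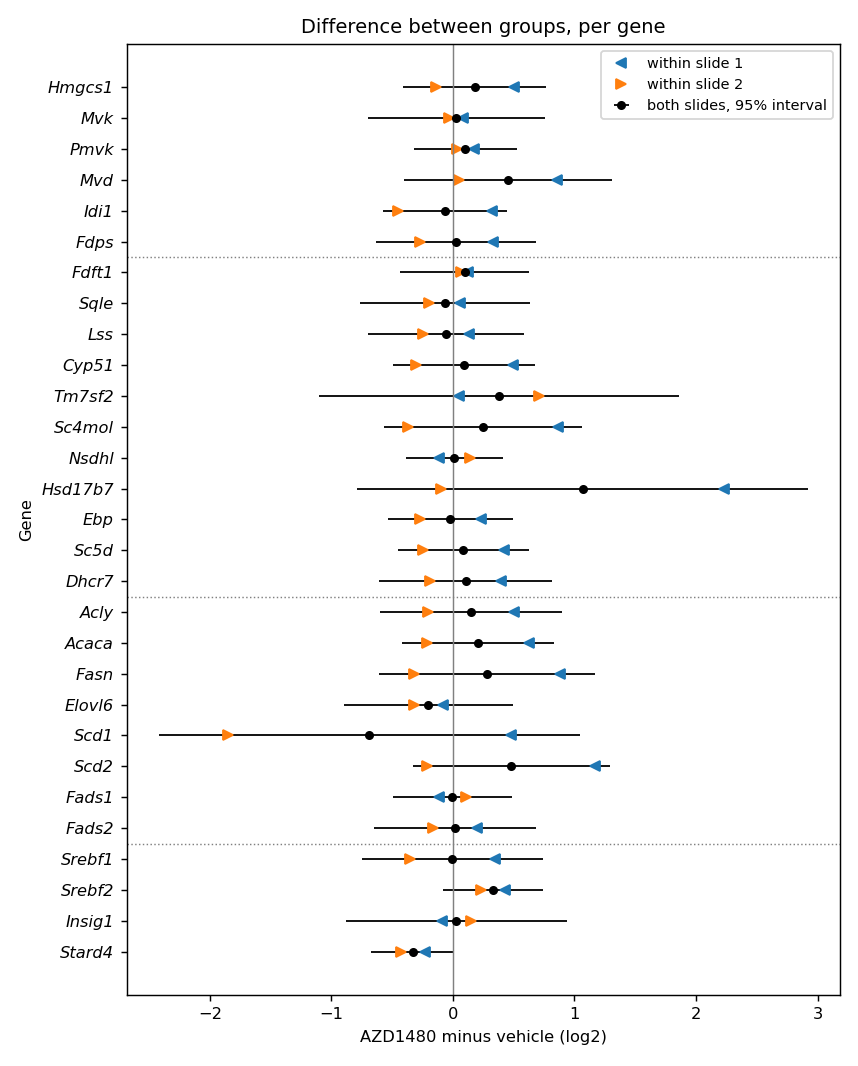
Log2 difference between AZD1480 and vehicle tumours (horizontal axis) for each of the 29 genes (vertical axis), in the order mevalonate enzymes, squalene to cholesterol enzymes, fatty acid enzymes, regulators and transport. Black points are the difference over both slides with its 95% interval from limma (4 arrays per group), and triangles are the differences within slide 1 and within slide 2 (2 arrays per group, no interval). Every black interval includes 0, and for 19 genes the triangle of slide 1 lies above 0 and that of slide 2 below it.

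Among the regulators, Srebf2, which encodes the factor for sterol genes, had the largest difference. Its levels were -1.50, -1.96, -1.42 and -1.62 in vehicle replicates 1 to 4 and -1.09, -1.52, -1.35 and -1.24 in AZD1480 replicates 1 to 4. Of the AZD1480 tumours, replicates 1, 3 and 4 lay above every vehicle tumour, and replicate 2 lay within the vehicle range. The log2 difference was 0.33 ± 0.18 (limma's moderated SE, n = 4 per group; adjusted p = 0.977). A dimmer probe of Srebf2 gave a difference of the opposite sign, -0.18, so the transcript had no settled direction. Srebf1, which encodes the factor for fatty acid genes, was at -2.86, -3.37, -1.99 and -2.69 in vehicle tumours and at -2.36, -3.19, -2.88 and -2.51 in AZD1480 tumours. Its group means were -2.73 ± 0.57 and -2.73 ± 0.37 (SD, n = 4 each), and the 95% interval ran from -0.75 to 0.74. Insig1, the retention factor, was at -2.91, -2.69, -1.72 and -2.14 in vehicle and at -2.72, -3.06, -1.71 and -1.85 in AZD1480 tumours. The spread within each group followed the slide, with replicates 3 and 4 above replicates 1 and 2, and the group means were -2.36 ± 0.54 and -2.34 ± 0.66 (SD), with a sign of the difference that turned under median scaling.

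Stard4 encodes a soluble carrier that moves cholesterol between membranes. Its levels were 0.17, -0.15, 0.30 and 0.07 in the vehicle tumours and -0.20, -0.25, -0.19 and -0.29 in the AZD1480 tumours. Every AZD1480 value lay below every vehicle value, and the gap between the nearest tumours was small beside the vehicle spread (SD 0.19 in vehicle and 0.05 in AZD1480). The log2 difference was -0.33 ± 0.15, a 1.26-fold lower mean (unadjusted p = 0.0568, adjusted p = 0.977). The same sign was seen within slide 1 (-0.23) and within slide 2 (-0.43). A dimmer probe of Stard4 gave a difference of -0.06, and the groups overlapped when both probes were averaged and when arrays were scaled by their median.

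The 6 mevalonate enzymes lead from acetyl-CoA units to farnesyl diphosphate. Mvd, the decarboxylase that forms isopentenyl diphosphate, had the largest difference, 0.45 ± 0.37 (adjusted p = 0.977). It was at -2.84, -2.20, -1.14 and -1.65 in vehicle tumours and at -1.43, -1.89, -1.59 and -1.11 in AZD1480 tumours. Vehicle replicates 1 and 2 were the lowest, vehicle replicate 3 was among the highest, and the groups overlapped. Without vehicle replicate 1 the difference was 0.16. Hmgcs1, the synthase that forms HMG-CoA and the gene with the sterol regulatory element match shown above, was at 2.45, 2.54, 3.40 and 2.88 in vehicle tumours. In AZD1480 tumours it was at 3.28, 2.71, 3.18 and 2.82, a difference of 0.18 ± 0.25. The highest Hmgcs1 level was that of vehicle replicate 3, without which the difference was 0.37, and the lowest that of vehicle replicate 1, without which it was 0.057. Idi1, the isomerase of isopentenyl diphosphate, was at 0.55, 0.51, 1.16 and 0.53 in vehicle and at 0.90, 0.81, 0.49 and 0.30 in AZD1480 tumours. Its mean was lower by 0.06 with AZD1480 (difference -0.06 ± 0.22), and within the slides the differences were 0.32 and -0.45. The kinases Mvk and Pmvk and the farnesyl diphosphate synthase Fdps differed by 0.03 to 0.10, and for Mvk and Fdps the sign turned under median scaling. Mvk was at 1.24, 1.48, 2.09 and 2.21 in vehicle and at 1.12, 1.78, 2.16 and 2.08 in AZD1480 tumours, higher on slide 2 in both groups.

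Of the 11 enzymes from squalene synthesis to cholesterol, 8 had a higher mean with AZD1480 and 3 a lower one, with the sign of Nsdhl turning under 4 other scalings or value sets. Hsd17b7, the 3-keto-sterol reductase, had the largest difference of all 29 genes, 1.07 ± 0.80 (a 2.09-fold higher mean, adjusted p = 0.977), read by a probe at chr1:171883182-171883241 of mm9 on the minus strand. Its levels were -3.75, -3.86, -1.93 and -3.46 in vehicle tumours and 0.15, -3.29, -2.84 and -2.75 in AZD1480 tumours. AZD1480 replicate 1 stood far above all other tumours, and without it the difference was 0.29. A second Hsd17b7 probe gave 0.67, with the same tumour highest (0.02). Tm7sf2, the sterol C14 reductase, was at -2.03, -1.18, -0.28 and -0.31 in vehicle tumours. In AZD1480 tumours it was at -1.90, -1.21, 0.36 and 0.46, and the difference was 0.38 ± 0.64. Replicates 3 and 4 of both groups, on slide 2, lay above replicates 1 and 2, on slide 1, and the difference was 0.05 within slide 1 and 0.71 within slide 2. Without vehicle replicate 1 it was 0.020, and without AZD1480 replicate 4 it was 0.035.

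The lowest differences in this stretch were those of Sqle, Lss and Ebp. Sqle, the squalene epoxidase, was at 1.94, 1.83, 2.93 and 2.57 in vehicle and at 1.95, 1.93, 2.55 and 2.56 in AZD1480 tumours (difference -0.07 ± 0.30). Lss, the lanosterol synthase, was at -2.18, -1.97, -1.09 and -1.52 in vehicle and at -2.18, -1.70, -1.65 and -1.46 in AZD1480 tumours (difference -0.06 ± 0.28). For both genes the levels ordered by slide rather than by treatment, with slide 2 higher. Ebp, the sterol isomerase, was at 3.15, 3.22, 3.55 and 3.51 in vehicle and at 3.82, 3.00, 3.44 and 3.07 in AZD1480 tumours, and its 95% interval ran from -0.54 to 0.49. Cyp51, the lanosterol demethylase, was at -2.69, -2.69, -1.91 and -2.65 in vehicle and at -1.90, -2.50, -2.59 and -2.59 in AZD1480 tumours. Its C4-demethylating neighbour in the pathway, Sc4mol (now Msmo1), was at 1.16, 0.73, 1.94 and 1.30 in vehicle and at 2.39, 1.24, 1.23 and 1.28 in AZD1480 tumours. Both genes were high in vehicle replicate 3 and AZD1480 replicate 1 alone, and they differed between groups by 0.09 ± 0.25 and 0.25 ± 0.35. Fdft1, the squalene synthase, the demethylation enzyme Nsdhl, the desaturase Sc5d and the final reductase Dhcr7 differed by 0.01 to 0.10. Nsdhl varied least of the sterol enzymes, and its interval of -0.39 to 0.41 kept it within a 1.33-fold change either way. A second probe of Nsdhl gave a larger difference, 0.27, and a second probe of Fdft1 one of the opposite sign, -0.06.

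**Figure D2:**
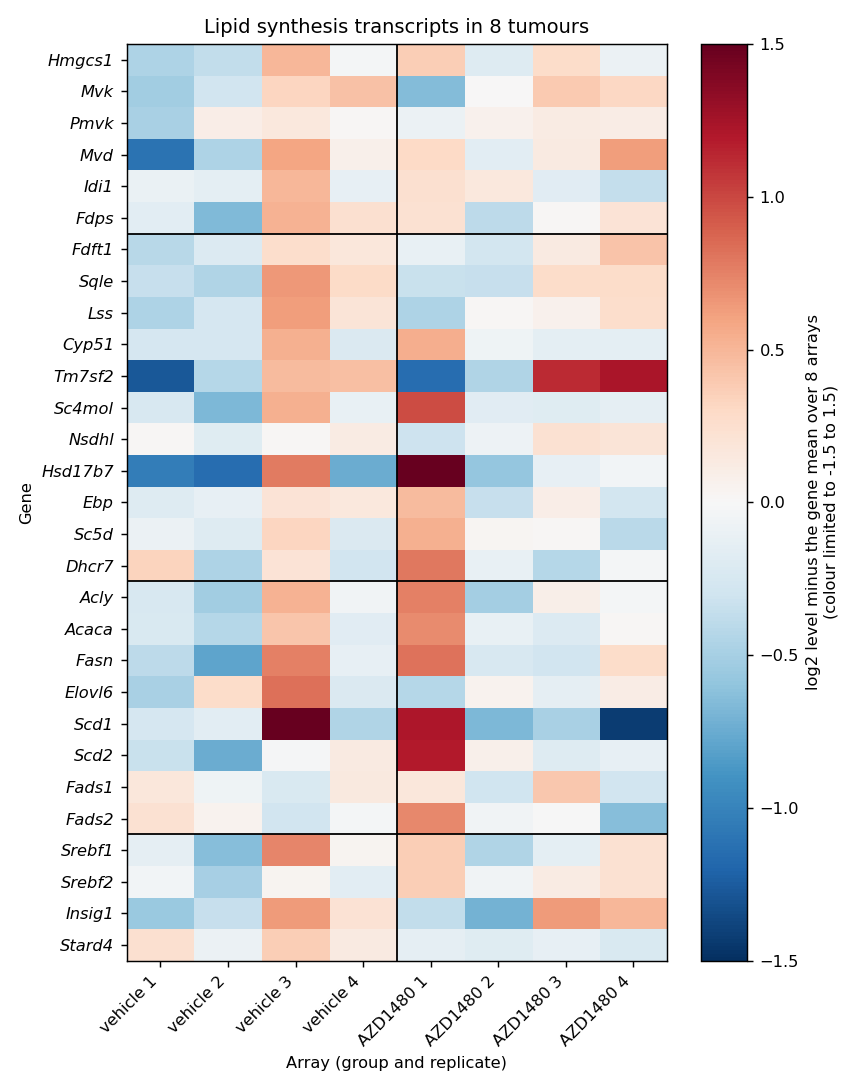
Level of each of the 29 genes (vertical axis) in each of the 8 tumours (horizontal axis), as log2 level minus the mean of the gene over 8 arrays, with colours limited to -1.5 to 1.5. Horizontal lines separate mevalonate enzymes, squalene to cholesterol enzymes, fatty acid enzymes, and regulators and transport. Vehicle replicate 3 held the highest value for 10 genes and AZD1480 replicate 1 for 12, and vehicle replicates 1 and 2 held the lowest for 7 and 11.

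The fatty acid enzymes showed their largest differences in the stearoyl-CoA desaturases Scd1 and Scd2, which put the double bond into saturated fatty acids, and these were of opposite sign. Scd1 was at -0.74, -0.65, 1.75 and -0.94 in vehicle tumours and at 0.72, -1.16, -0.98 and -1.91 in AZD1480 tumours, read by a probe at chr19:44469387-44469446 of mm9 on the minus strand. Vehicle replicate 3 and AZD1480 replicate 1 stood above the other tumours by over 1 log2 unit. The difference was -0.69 ± 0.75 (adjusted p = 0.977), and it was 0.47 within slide 1 and -1.85 within slide 2. It was -0.057 without vehicle replicate 3 and -1.21 without AZD1480 replicate 1. Scd2 was at 3.69, 3.28, 4.00 and 4.15 in vehicle and at 5.21, 4.10, 3.83 and 3.90 in AZD1480 tumours, read by a probe at chr19:44381024-44381083 of mm9 on the plus strand. AZD1480 replicate 1 was the highest for Scd2, and the other AZD1480 tumours lay within the vehicle range. The Scd2 difference of 0.48 ± 0.35 (adjusted p = 0.977) was 0.16 without that tumour.

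Acly, Acaca and Fasn form the path from citrate to palmitate. Fasn, the fatty acid synthase, was at -1.55, -1.95, -0.41 and -1.28 in vehicle and at -0.34, -1.39, -1.45 and -0.89 in AZD1480 tumours (difference 0.28 ± 0.38). Acaca, the acetyl-CoA carboxylase, was at 1.32, 1.12, 1.97 and 1.38 in vehicle and at 2.26, 1.44, 1.35 and 1.57 in AZD1480 tumours (difference 0.21 ± 0.27). Acly, the citrate lyase that supplies cytosolic acetyl-CoA, was at 2.57, 2.30, 3.34 and 2.76 in vehicle and at 3.57, 2.31, 2.90 and 2.78 in AZD1480 tumours (difference 0.15 ± 0.32). Of the other 3 probes of Acaca, 1 gave 0.19 and the dimmer pair 0.53 and 0.55, and a dimmer probe of Acly gave 0.37. Over the probes shown, all 3 genes were highest in vehicle replicate 3 and AZD1480 replicate 1 and lowest in vehicle replicate 2. Without AZD1480 replicate 1 the differences of Fasn and Acaca were 0.058 and 0.0054. Elovl6, which elongates palmitate, was at -1.51, -0.75, -0.19 and -1.24 in vehicle and at -1.45, -0.98, -1.16 and -0.92 in AZD1480 tumours (difference -0.20 ± 0.30). Fads1, a desaturase of polyunsaturated fatty acids, was at 1.92, 1.69, 1.53 and 1.90 in vehicle and at 1.92, 1.46, 2.17 and 1.47 in AZD1480 tumours, with no order by group or slide. Fads1 and its partner desaturase Fads2 differed by -0.01 and 0.02, and each sign turned under another scaling or in the value table. Their intervals were -0.49 to 0.48 and -0.65 to 0.68. A second, dimmer probe of Fads2 was at -2.27, -2.22, -2.07 and -1.81 in vehicle and at -1.63, -2.05, -1.37 and -1.59 in AZD1480 tumours. There replicates 1, 3 and 4 of AZD1480 lay above every vehicle tumour (difference 0.43), so the probes of Fads2 did not give 1 size of difference.

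Set against each other, the sterol and the fatty acid enzymes differed with treatment by less than the spread between tumours. The mean level of the 17 sterol enzymes, each gene first centred on its mean over 8 arrays, was -0.40, -0.36, 0.42 and 0.03 in vehicle and 0.25, -0.17, 0.11 and 0.13 in AZD1480 tumours. Its group difference was 0.16 (SD 0.39 in vehicle and 0.18 in AZD1480, n = 4 each). It was 0.050 without vehicle replicate 1, 0.062 without vehicle replicate 2, 0.10 without AZD1480 replicate 1, 0.32 without vehicle replicate 3 and 0.24 without AZD1480 replicate 2. The mean of the 8 fatty acid enzymes was -0.19, -0.30, 0.53 and -0.10 in vehicle and 0.64, -0.22, -0.10 and -0.26 in AZD1480 tumours, a group difference of 0.03 (SD 0.37 and 0.42). This difference had no settled sign. It was -0.18 without AZD1480 replicate 1 and 0.21 without vehicle replicate 3, ran from -0.065 to 0.12 with each other array left out, and was 0.0017 without both of these tumours. With the mean of a gene's probes it was 0.090, and under median scaling -0.022. The sterol mean minus the fatty acid mean was -0.21, -0.06, -0.10 and 0.12 in vehicle tumours. In AZD1480 tumours it was -0.39, 0.05, 0.21 and 0.39, so that replicate 1 lay lowest and replicates 3 and 4 highest of all 8. This contrast differed by 0.13 between groups, less than its SD among AZD1480 tumours (0.34; 0.14 in vehicle). It was 0.018 without AZD1480 replicate 4 and 0.28 without AZD1480 replicate 1, 0.079 without vehicle replicate 1 and 0.078 without AZD1480 replicate 3, and 0.059 with the mean of a gene's probes. Within slide 1 it was -0.037 and within slide 2 0.29. No p is given for these means because the genes were chosen with earlier results known.

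**Figure D3:**
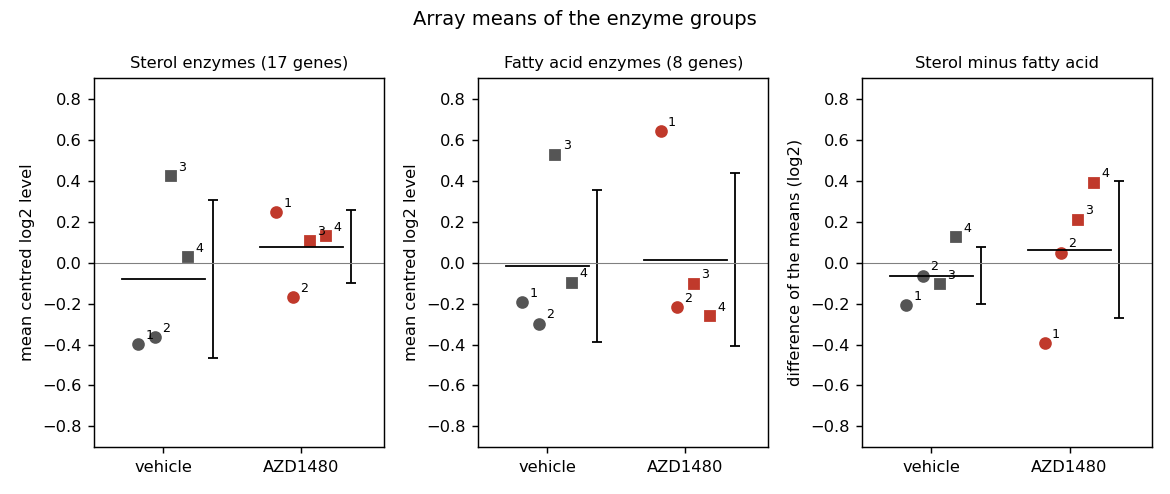
Mean centred log2 level of the 17 sterol enzymes, of the 8 fatty acid enzymes, and the difference of these means (vertical axes), in vehicle and AZD1480 tumours. Points are tumours with their replicate number, circles on slide 1 and squares on slide 2, horizontal bars are group means and error bars are SDs (n = 4). The groups overlap in all 3 panels, and vehicle replicate 3 and AZD1480 replicate 1 are the highest tumours for the fatty acid enzymes (0.53 and 0.64).

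The direction of the group difference turned between the slides for most of these genes. Within slide 1, 24 of the 29 means were higher with AZD1480, against 54.3% of all genes, and within slide 2, 8 of 29 were higher, against 53.6% of all genes. In all 19 genes were higher on slide 1 and lower on slide 2, against 23.1% of all genes. The sterol enzyme mean differed by 0.42 within slide 1 and by -0.11 within slide 2, and the fatty acid enzyme mean by 0.46 and -0.40. The tumours that most often held the highest value lay in opposite groups, AZD1480 replicate 1 on slide 1 and vehicle replicate 3 on slide 2. Their fatty acid enzyme means were 0.64 and 0.53, while those of the other tumours ran from -0.30 to -0.10. The part of these 2 tumours in the turn between slides was not tested. By limma's interaction of treatment and slide with Benjamini-Hochberg adjustment, 0 of 29 genes passed, as did 0% of all genes. At an unadjusted p under 0.05 the count was 0 of 29, against 1.48% of all genes. The smallest interaction p was that of Scd2 (unadjusted p = 0.0510, adjusted p = 0.984), at 1.17 within slide 1 and -0.21 within slide 2. The slides also differed in level, whatever the treatment. Of the 29 genes, 22 were higher on slide 2 (75.9%, against 50.6% of all genes), with a median log2 difference of 0.28 for the sterol enzymes, 0.025 for the fatty acid enzymes and 0.0059 for all genes. Each tumour was on a single slide, so slide and tumour cannot be told apart here.

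Across the 8 tumours the 29 transcripts varied together more than genes did on average. Pearson's r of the log2 levels, averaged over pairs of genes, was 0.326 among the 29 genes and 0.0102 among all genes tested. The mean r was 0.356 among the sterol enzymes, 0.317 among the fatty acid enzymes and 0.284 between them. All pairs share the same arrays, slides and scaling, and these values describe 8 tumours without a test. After subtraction of each slide's mean, the mean r among the 29 genes was 0.266. Without vehicle replicate 3 and AZD1480 replicate 1, it was 0.212 among the 29 genes and 0.325 among the sterol enzymes, while that among the fatty acid enzymes was -0.0441.

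Within the sterol branch, 2 kinds of profile could be seen, and the examples were picked after the values were seen. Mvk, Fdft1, Sqle, Lss, Tm7sf2 and the regulator Insig1 were low in replicates 1 and 2 of both groups and high in replicates 3 and 4. Insig1 correlated with Sqle (r = 0.926, Spearman's rho = 0.69) and with Fdft1 (r = 0.908, rho = 0.786), and Mvk with Tm7sf2 (r = 0.92, rho = 0.738). These 3 values were 0.92, 0.901 and 0.904 without vehicle replicate 3 and AZD1480 replicate 1. Cyp51, Sc4mol and Hsd17b7 instead followed some of the fatty acid enzymes, among them Acly, Acaca and Fasn, with their highest levels in those 2 tumours. Their r with the fatty acid enzymes Elovl6 and Fads1 ran only from -0.147 to 0.313. With Acaca, r was 0.983 for Sc4mol, 0.946 for Cyp51 and 0.951 for Hsd17b7. Without the 2 tumours these were 0.863, 0.64 and 0.76. Srebf1 correlated with Fdps (r = 0.95) and with Fasn (r = 0.919), and both values held without the 2 tumours (0.961 and 0.863). Fads2 ran against Lss (r = -0.781, and -0.751 without the 2 tumours).

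**Figure D4:**
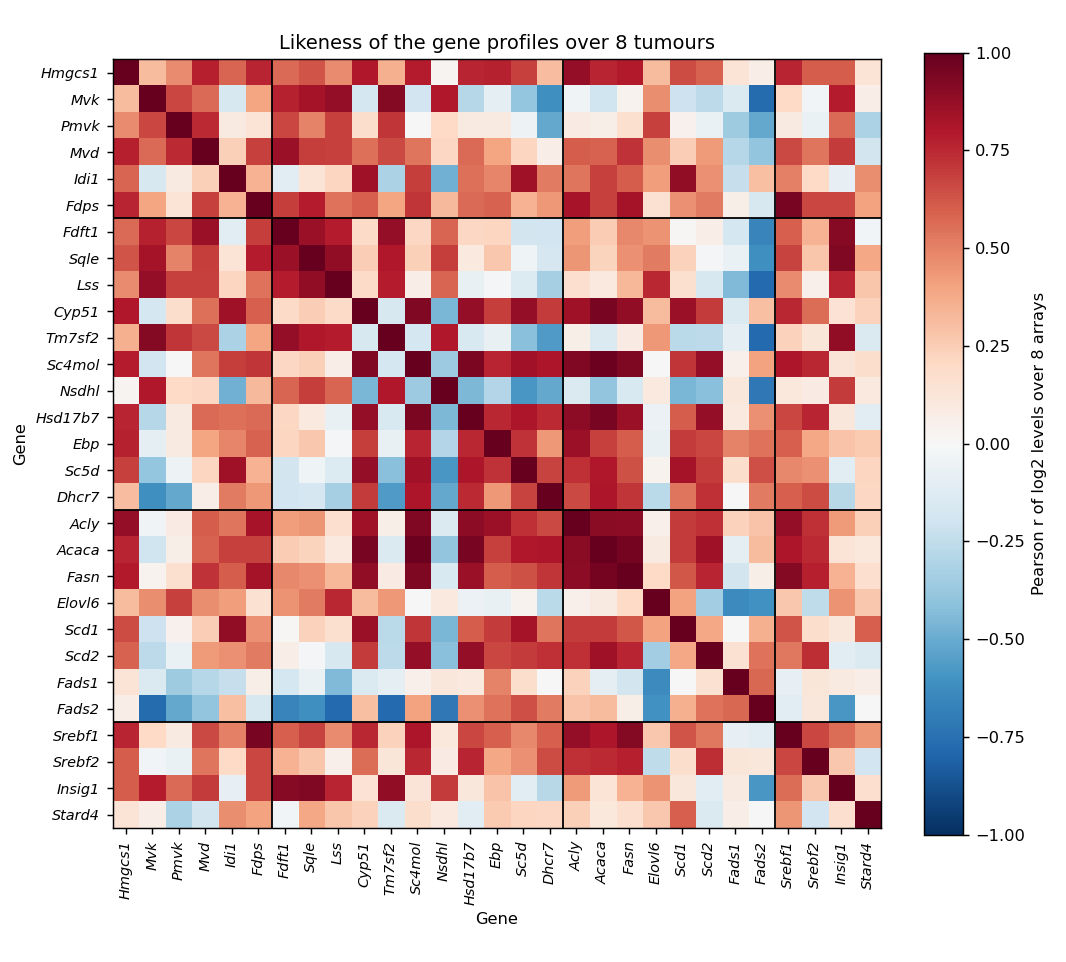
Pearson's r of the log2 levels over 8 tumours for every pair of the 29 genes (both axes), with lines between mevalonate enzymes, squalene to cholesterol enzymes, fatty acid enzymes, and regulators and transport. Red is positive and blue negative; the mean over pairs is 0.326, Sc4mol with Acaca reaches 0.983, and Fads2 with Lss is at -0.781.

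Markers of adipocytes and of steroid-making ovarian cells were high in the same tumours as several of these genes. The mean centred level of 9 of 11 adipocyte markers was 0.41, -0.78, 3.38 and -0.14 in vehicle and -0.58, -1.07, -0.33 and -0.89 in AZD1480 tumours. In that list Plin1, Lep and Cfd were well above background on 4 of 8 arrays, so their levels elsewhere are at the background. Over the other 6 markers, well above background on 8 of 8 arrays, the mean was 0.025, -0.39, 2.51 and -0.23 in vehicle and -0.33, -0.63, -0.55 and -0.41 in AZD1480 tumours. By both means vehicle replicate 3, the tumour with the highest Scd1, was far above the rest. Of this list, 7 markers were lower with AZD1480 and 2 higher, 0 at an unadjusted p under 0.05 by limma, and the defining markers Adipoq and Cidec were well above background on 3 of 8 arrays and were not tested. Fabp4, the fatty acid-binding protein of adipocytes, was at -1.58, -2.52, 3.20 and -0.88 in vehicle and at -4.50, -3.76, -2.55 and -1.76 in AZD1480 tumours. The mean of 7 of 10 markers of steroid-making cells was 1.81, -1.32, 1.79 and -1.70 in vehicle and 3.07, -1.22, -1.37 and -1.05 in AZD1480 tumours. Hsd3b1 was well above background on 4 of 8 arrays, and over the other 6 markers the mean was 1.44, -0.70, 0.66 and -1.18 in vehicle and 2.56, -0.76, -0.95 and -1.07 in AZD1480 tumours. AZD1480 replicate 1, the tumour with the highest Hsd17b7, was the highest by both means. Vehicle replicate 1 also stood high in these markers and held the highest mean of the epithelial markers, and its sterol enzyme mean was the lowest of the 8 tumours. Of these 7 markers, 5 were lower and 2 higher with AZD1480, 0 at an unadjusted p under 0.05 by limma. The steroidogenic enzymes Cyp11a1 and Cyp19a1 and the receptor Lhcgr were well above background on 2 or 3 of 8 arrays and were not tested. AZD1480 replicate 1 was also the lowest tumour for 6 ciliated cell markers (-5.39, against 0.58 to 1.18 elsewhere) and for 8 macrophage markers (-1.34, against -0.14 to 0.35). Of the cell type markers, the groups did not overlap for the macrophage receptor gene Fcgr3 (-0.92 ± 0.25) and for Vwf of endothelium (-1.12 ± 0.33). Both were lower with AZD1480, as were 1.39% of all genes without overlap, and both had an adjusted p of 0.977 by limma. Of 8 macrophage markers 7 were lower and 1 higher, and of 7 endothelial markers 5 were lower and 2 higher, where 43.8% of all genes were lower. At an unadjusted p under 0.05 by limma 2 of each list were lower, against 1.76% of all genes. These were Fcgr3 and Mrc1 (-1.045) of macrophages, and Vwf and Lyve1 (-1.17) of endothelium. Mrc1 and Lyve1 also had an adjusted p of 0.977 by limma. The part of these cells in the values of Scd1, Hsd17b7 and the other genes was not tested.

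**Figure D5:**
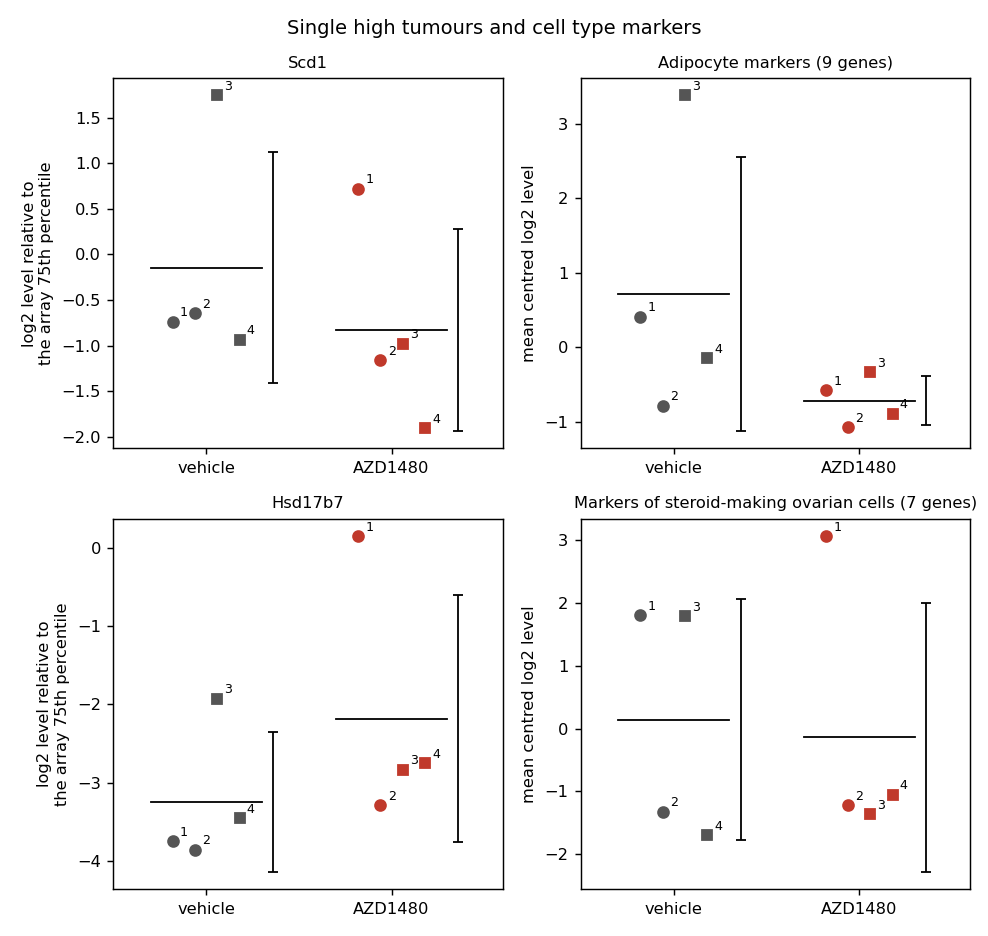
Log2 levels of Scd1 and Hsd17b7 relative to the 75th percentile of the array (left panels), and mean centred log2 levels of 9 adipocyte markers and of 7 markers of steroid-making ovarian cells (right panels), in vehicle and AZD1480 tumours. Points are tumours with their replicate number, circles on slide 1 and squares on slide 2, horizontal bars are group means and error bars are SDs (n = 4). Vehicle replicate 3 is highest for Scd1 (1.75) and the adipocyte markers (3.38), and AZD1480 replicate 1 for Hsd17b7 (0.15) and the steroid-making markers (3.07).

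Other genes of lipid metabolism gave 0 adjusted calls by limma as well. Of 23 further sterol pathway genes, 10 were lower and 13 higher with AZD1480, 0 of them at an unadjusted p under 0.05, and the median difference was 0.0863. The smallest p in that list belonged to Npc1, which exports cholesterol from lysosomes (-0.41 ± 0.24), and to Dhdds, which makes dolichol chains (-0.20 ± 0.13). Dhdds was at 0.30, 0.37, 0.37 and 0.41 in vehicle and at -0.0025, 0.12, 0.27 and 0.25 in AZD1480 tumours. Every AZD1480 value lay below every vehicle value, as for 1.39% of all genes. Of 11 genes of sterol efflux and of the liver X receptors, which sense sterol excess, 7 were lower and 4 higher. Among them 2 were lower at an unadjusted p under 0.05, against 1.76% of all genes. Arl4c, a small GTPase gene induced by these receptors, was at 2.20, 2.13, 2.28 and 2.32 in vehicle and at 1.75, 1.89, 1.98 and 1.78 in AZD1480 tumours. Its AZD1480 values lay below every vehicle value, as for 1.39% of all genes (-0.38 ± 0.13, unadjusted p = 0.0221, adjusted p = 0.977 by limma). Nr1h3, the gene of the receptor LXR alpha, was at -1.72, -1.48, -0.97 and -1.28 in vehicle and at -2.19, -1.85, -1.61 and -1.96 in AZD1480 tumours (-0.54 ± 0.21, adjusted p = 0.977). Macrophages express Nr1h3, and the macrophage markers were 0.59 log2 units lower in AZD1480 tumours on average (-0.59, and -0.24 without AZD1480 replicate 1). The part of these cells in the Nr1h3 values was not tested.

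Of 28 measured genes of other steps in fatty acid and glycerolipid synthesis, 11 were lower and 17 higher, with a median difference of 0.05. At an unadjusted p under 0.05 by limma there was 1 gene in each direction, against 1.76% lower and 1.72% higher over all genes. These 2 genes encode the unrelated enzymes that make triglyceride from diglyceride. Dgat1 was at -1.02, -0.97, -1.01 and -1.15 in vehicle and at 0.0045, -0.70, -0.74 and -0.51 in AZD1480 tumours, above every vehicle value (0.55 ± 0.20, unadjusted p = 0.0230). Dgat2 was at 0.48, 0.96, 2.06 and 0.92 in vehicle and at -1.53, 0.46, 0.14 and -0.064 in AZD1480 tumours, below every vehicle value (-1.35 ± 0.50, unadjusted p = 0.0274). Both had an adjusted p of 0.977 by limma and did not pass. Over all genes 1.19% lay above and 1.39% below without overlap. Vehicle replicate 3, with the highest adipocyte markers, was also the tumour with the highest Dgat2. Of 15 fatty acid oxidation genes, 4 were lower and 11 higher, 0 at an unadjusted p under 0.05, with a median difference of 0.105 and differences from -0.092 to 0.34. The smallest p there belonged to the dehydrogenase genes Acads (0.27 ± 0.17) and Etfdh (0.18 ± 0.14).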

How the data were processed

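The arrays are Agilent 1-colour mouse arrays of Cy3-labelled total RNA, 4 tumours per group. The submitters' processing notes name Agilent Feature Extraction 9.5.3 as the scan software. Per the file headers, each spot has a processed intensity, background-subtracted and detrended, with no scaling from array to array. A log2 value table deposited by the authors was used as an alternative; all its columns have a median of 8.36 and identical sorted values, as quantile normalization leaves them, and no source used here gives its offset.

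The 75th percentile of each array, over its probes other than controls, was subtracted from the log2 processed intensities (intensity 4368 to 5370 on slide 1 and 1492 to 2615 on slide 2). Spots of a probe were averaged without outlier flags. Probes well above background on at least 4 of 8 arrays were kept, 28338 in all, and the brightest kept probe represented a gene. Of 39429 probes, 26055 were named by RefSeq accession through the GRCm38.p6 gene table, 8610 by the name in the array files, and 4764 were unnamed. Coordinates of probes are on mm9, as the array files give them. The 29 genes had 42 probes, all kept, and 11 genes had more than 1. The probes disagreed in sign for Srebf2 and Fdft1, by at most 0.511.

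Groups were compared across all 19752 genes by lmFit and eBayes of limma 3.58.1 (R 4.3.3), two-sided and with treatment as the only term, with Benjamini-Hochberg adjustment over all genes and a threshold of 0.05. Per the labels, each replicate is a separate mouse. The code was tested on simulated data. The genes, lists and tests were chosen with earlier results of these data known. Of the 29 genes, every array value is given where groups do not overlap, for the 3 highest and 3 lowest differences among the sterol enzymes, the fatty acid enzymes and the regulators, and for others singled out after their values were seen; up to 4 genes with the smallest p stand for each other lipid list. Alternatives were other scalings and background corrections, filters, probe choices, slide terms, array weights and leaving out arrays.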

Additional observations from a re-analysis of the deposited data

Results flagged for a closer look

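In 6 of 58 sets of 4 tumours (29 genes in 2 groups), 1 tumour stood apart from the other 3 by more than Dixon's 95% limit for 4 values, which chance alone would pass in about 1 of 20 sets. Vehicle replicate 3 stood apart for Idi1 (1.16, next highest 0.55), Cyp51 (-1.91, next highest -2.65) and Scd1 (1.75, next highest -0.65). AZD1480 replicate 1 stood apart for Cyp51 (-1.90, next highest -2.50), Sc4mol (2.39, next highest 1.28) and Hsd17b7 (0.15, next highest -2.75). All 6 were high values, and all lay in these 2 tumours. Vehicle replicate 3 held the highest mean of adipocyte markers (3.38), and AZD1480 replicate 1 the highest mean of markers of steroid-making ovarian cells (3.07). The part of these cells in the high values was not tested.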

How the results depend on the processing

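Under all 22 alternatives, 0 of the 29 genes passed limma's adjusted test of treatment. Under the alternatives with all 8 arrays in which it was fitted, 0 of the 29 passed the test of the difference between slides. The means of Mvd, Tm7sf2, Srebf2 and Stard4 kept their sign under all 22, and those of the other 25 genes turned under at least 1. The deviations of same-numbered vehicle and AZD1480 arrays correlated at 0.36, 0.356, 0.125 and -0.0586, and vehicle replicate 4 correlated best with AZD1480 replicate 3 (0.554), so the numbers were not taken as pairs. With the replicate number as a block, 0 of the 29 genes passed, 0 reached an unadjusted p under 0.05 by limma and 0 turned. Over all 19752 genes, 455 were lower and 416 higher at that unadjusted level. Without vehicle replicate 3 and AZD1480 replicate 1 (chosen after seeing the data), Hsd17b7 alone of the 29 had an unadjusted p under 0.05 by limma (difference 0.73). Over all 19752 genes, 339 were lower and 294 higher at that level. For 4 of the 29 genes the groups did not overlap (Cyp51 and Hsd17b7 above, Scd1 and Stard4 below), against 7.67% of all genes. The count at an unadjusted p under 0.05, 0 in the report, was 1 with normexp, quantile normalization, the percentile over detected probes, the authors' deposited value table and array weights (Stard4 each time), and within slide 2 (Tm7sf2). The count without overlap was 0 with median scaling and with the mean of a gene's probes, 11 within slide 1 (33.2% of all genes) and 11 within slide 2 (32.7%). The count of slide differences at an unadjusted p under 0.05 was 1 with normexp, quantile normalization, the percentile over detected probes and the filter on 8 arrays. The share over all genes was not computed under these settings, and it was 1.48% in the report. The fatty acid enzyme mean differed by 0.46 within slide 1 and by -0.40 within slide 2. Array weights gave 22 lower and 7 higher genes, and a sterol mean of -0.052 and a fatty acid mean of -0.22. The differences that turned are given next, and the cause was not tested. They were, with normexp, Fdps -0.0089, Nsdhl -0.012 and Srebf1 0.011; with quantile normalization, Fdps -0.0086 and Fads2 -0.010; with the percentile over detected probes, Nsdhl -0.0076 and Fads2 -0.0034. The value table gave Fdps -0.045, Nsdhl -0.017 and Fads1 0.0021. Median scaling gave Mvk -0.024, Fdps -0.023, Nsdhl -0.041, Fads2 -0.037 and Insig1 -0.023. Within slide 1 were Idi1 0.32, Sqle 0.056, Lss 0.13, Nsdhl -0.12, Ebp 0.23, Scd1 0.47, Srebf1 0.34 and Insig1 -0.089. Within slide 2 were Hmgcs1 -0.14, Mvk -0.030, Fdps -0.27, Cyp51 -0.31, Sc4mol -0.37, Hsd17b7 -0.10, Sc5d -0.25, Dhcr7 -0.19, Acly -0.21, Acaca -0.21, Fasn -0.32, Scd2 -0.21, Fads1 0.10 and Fads2 -0.17. Array weights gave Hmgcs1 -0.053, Mvk -0.016, Fdps -0.26, Fdft1 -0.064, Cyp51 -0.10, Sc4mol -0.10, Sc5d -0.030, Dhcr7 -0.073, Acly -0.22, Acaca -0.045, Fasn -0.12, Fads2 -0.051 and Insig1 -0.23. Leaving out arrays (1 at a time, or both named above), the count at an unadjusted p under 0.05 ran from 0 to 1. Over all 19752 genes it ran from 233 to 573 lower and from 198 to 1047 higher. The count without overlap ran from 1 to 4, against 4.01% to 9% of all genes. Counts of slide differences are not given there, because such a fit leaves 1 array of a group on a slide. Over the same sets the genes that turned ran as follows. Mevalonate enzymes were Mvk -0.14 to 0.36, Pmvk -0.042 to 0.22, Idi1 -0.16 to 0.093 and Fdps -0.19 to 0.21. Later sterol enzymes were Fdft1 -0.033 to 0.25, Sqle -0.23 to 0.24, Lss -0.22 to 0.29, Cyp51 -0.073 to 0.28, Sc4mol -0.035 to 0.47, Nsdhl -0.063 to 0.13, Ebp -0.18 to 0.088, Sc5d -0.078 to 0.23 and Dhcr7 -0.14 to 0.27. The others were Acly -0.078 to 0.35, Elovl6 -0.40 to 0.15, Fads1 -0.14 to 0.093, Fads2 -0.31 to 0.23, Srebf1 -0.22 to 0.24 and Insig1 -0.18 to 0.37. The genes that kept their sign there were Hmgcs1 0.057 to 0.37, Mvd 0.16 to 0.73, Tm7sf2 0.020 to 1.04, Hsd17b7 0.29 to 1.51, Acaca 0.0054 to 0.38, Fasn 0.058 to 0.58, Scd1 -1.21 to -0.057, Scd2 0.16 to 0.62, Srebf2 0.22 to 0.40 and Stard4 -0.41 to -0.26. All 29 genes were well above background throughout, and the parts of tumour spread and of probe choice in these values were not tested.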
